A study of Mus musculus with 6 samples.

Results

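The U2, U4, U5 and U7 small nuclear RNAs (snRNAs) and the minor spliceosomal snRNAs U11, U12, U4atac and U6atac were followed in small RNA libraries of mouse bone marrow. Members were the counted features that carry the GENCODE M21 gene type snRNA at the same start and end on GRCm38 and whose length falls in neither the U6-length class (counted features of 99 to 111 nt) nor the U1-length class (157 to 168 nt). This gave 87 of the 1823 counted features, out of 349 snRNA features in all, with 594780 reads over the 6 libraries. The length limits cut through rarely read genes: Gm22971 and Gm23865 (97 nt) had 2 reads each inside the lower limit, and Gm22766 (99 nt) had 2 reads outside it. Around the upper limits, Gm22768 (153 nt) had 1 read and Gm22214 (172 nt) had 2 reads.

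The libraries were made from lineage-negative (Lin-) bone marrow, the fraction depleted of mature blood cells, of wild-type mice (WT, 3 libraries) and of mice labelled Mat KO (KO, 3 libraries), taken here as a knockout inherited from the mother at the Dlk1-Gtl2 imprinted locus. The labels give no strain, age or deleted interval, and do not say that the 3 libraries of a genotype are 3 animals. The p-values therefore measure library-to-library spread, which may be technical. PCR products of 170 to 370 bp were cut from a gel, per the labels' protocols, so the length of an RNA bears on how it was sampled. The question put to the members was whether their levels differed between KO and WT.

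The spliceosome removes introns from precursor mRNAs, and its RNA parts are the snRNAs. In the major spliceosome U2 pairs with the intron's branch site, U4 holds U6 in an inactive pairing, and U5 aligns the exons that are to be joined. The minor spliceosome, which acts on a rare class of introns, uses U11 and U12 for the first recognition steps, U4atac and U6atac in place of U4 and U6, and the same U5. U7 is not a splicing RNA: it guides the 3′ end cut of replication-dependent histone mRNAs, which are made in dividing cells.

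Because 81 of the 87 members carry a provisional GENCODE name starting with Gm, types were set by a GENCODE or RefSeq type name where there was one and otherwise by a short motif read on the gene's own strand. The sequences below, from the GENCODE M21 transcripts (GRCm38), show a representative of each type other than U5, with the typing motif in capitals, 5′ to 3′. The U2 motif GTAGTA contains the branch site pairing stretch, the U5 motif CCTTTTA is its exon-binding loop, and the U7 motif TTTGTCT lies in its binding site for Sm-class proteins. The other motifs were AGCTTTG for U4, AAAGGGC for U11, TAAGGAA for U12, CCATCCT for U4atac and AAGGAGA for U6atac.
Rnu2-10 (U2, chr11:101658238-101658428, plus strand): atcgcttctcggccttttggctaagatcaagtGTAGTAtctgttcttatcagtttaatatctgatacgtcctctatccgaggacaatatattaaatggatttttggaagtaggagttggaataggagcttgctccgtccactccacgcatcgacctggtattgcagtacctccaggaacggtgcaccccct
Gm24407 (U4, chr5:115490254-115490394, plus strand): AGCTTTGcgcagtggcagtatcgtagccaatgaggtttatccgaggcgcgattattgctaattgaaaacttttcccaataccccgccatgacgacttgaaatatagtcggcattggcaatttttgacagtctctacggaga
Rnu7 (U7, chr6:124741225-124741286, minus strand): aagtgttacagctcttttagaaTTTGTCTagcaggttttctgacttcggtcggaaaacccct
Rnu11 (U11, chr4:132270080-132270213, minus strand): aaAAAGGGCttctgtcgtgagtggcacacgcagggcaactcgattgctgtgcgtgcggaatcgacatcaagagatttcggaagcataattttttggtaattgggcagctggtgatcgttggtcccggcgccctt
Rnu12 (U12, chr15:83149644-83149794, plus strand): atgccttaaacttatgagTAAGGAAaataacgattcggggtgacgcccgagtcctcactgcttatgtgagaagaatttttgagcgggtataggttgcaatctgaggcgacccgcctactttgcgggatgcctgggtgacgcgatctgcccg
Gm22710 (U4atac, chr1:118459141-118459265, minus strand): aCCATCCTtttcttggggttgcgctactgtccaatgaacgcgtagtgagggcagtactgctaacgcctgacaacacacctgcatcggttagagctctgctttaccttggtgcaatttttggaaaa
Gm25541 (U6atac, chr2:27539805-27539930, minus strand): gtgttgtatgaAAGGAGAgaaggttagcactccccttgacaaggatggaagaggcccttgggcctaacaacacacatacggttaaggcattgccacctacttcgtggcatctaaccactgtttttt

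A motif match is a description of the letters and does not show that a gene is functional. Among all annotated snRNA genes of the same length window, the U5 motif was found in 1.19% (11 of 928 genes), the U4atac motif in 1.19% (1 of 84) and the U12 motif in 3.00% (6 of 200). The U11 motif was found in 3.90% (3 of 77), the U7 motif in 9.09% (8 of 88) and the U6atac motif in 10.7% (9 of 84). The U4 motif was found in 14.4% (16 of 111), and the 6-letter U2 motif was the least selective, at 38.6% (22 of 57). Both strands were searched, typing used only the gene's own, and no motif contains another. Typing placed 19 members in U2, 5 in U4, 11 in U5, 2 in U7, 2 in U11, 4 in U12, 1 in U4atac and 2 in U6atac, and left 41 untyped.

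Most annotated genes that meet the rule were not seen: 366 genes meet it and 87 had a read in any library. The share seen differed by type. All 11 annotated U5 genes, the single U4atac gene, 19 of 21 U2 genes and 4 of 5 U12 genes had reads, against 5 of 16 U4 genes, 2 of 8 U7 genes, 2 of 9 U6atac genes and 41 of 292 untyped genes. By position, 46 members are intergenic, 36 lie in an intron and 6 touch an exon of another gene, and a member can be in more than 1 of these classes. Reads were unevenly spread: 31 members had over 1000 reads each and 42 had at most 12. U2 held 69.8% of the members' reads, U5 held 11.2%, U7 held 11.02% and U12 held 4.58%, whereas U4 held 0.348% and U4atac 0.0560%.

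Library totals were 45398303 to 53299322 counts, of which the members took 0.108% to 0.249%. The snoRNAs between Dlk1 and Dio3, which check the genotype labels, gave read counts of 3, 2 and 2 (KO) against 87, 106 and 94 (WT). All 8 haematopoietic marker miRNA precursors had reads (summed level 36.5 to 65.1 CPM in KO and 19.1 to 44.9 CPM in WT, where CPM is the count scaled to the library's total). The liver marker precursor was at 0 to 0.0193 CPM in KO and 0 to 0.507 CPM in WT. The 5 muscle marker precursors summed to 14.9 CPM in KO replicate 2, to 0.0825 and 0.254 CPM in KO replicates 1 and 3, and to 0.0938 to 0.354 CPM in WT. Of the 5 brain marker precursors 3 had reads, at 2.16 CPM in KO replicate 2, 0.0413 and 0.0634 CPM in KO replicates 1 and 3, and 0.396 to 0.788 CPM in WT, and Mir124a-1 and Mir124-2hg had none. The part of these cell types in the results below was not tested, and in bulk RNA fewer cells of a type and less RNA per cell cannot be told apart.

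**Figure D1:**
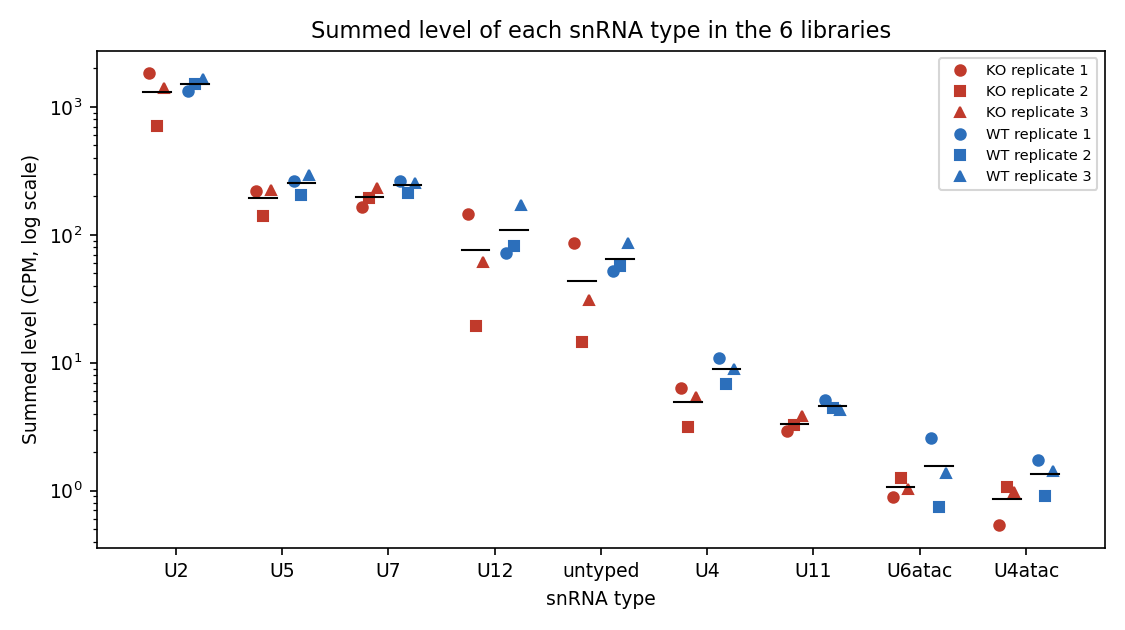
Summed level of each snRNA type (CPM, log axis) in the 3 KO (red) and 3 WT (blue) libraries, with replicate 1 as circles, replicate 2 as squares and replicate 3 as triangles, and a bar at each group mean. Only U4 and U11 have KO values that all lie below the WT values, and KO replicate 2 is the lowest library for U2, U5, U12, U4 and the untyped members.

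No member passed the test between KO and WT. Of the 87 members, 38 passed the filter on low counts and were tested among 624 features; the other 49 had at most 47 reads each and 337 together. By edgeR's quasi-likelihood test with Benjamini-Hochberg adjustment, 0 of 38 members had an adjusted p under 0.05, against 1 of the 624 features (0.16%). DESeq2 gave the same counts, 0 members and 1 feature. With no filter on low counts edgeR called 0 of the 87 members, against 0.713% of the 1823 features. At an unadjusted p under 0.05, 2 of the 38 members stood out, both lower in KO, against 6.41% of all tested features, or 4.33% in that direction. The estimate was lower in KO for 35 of 38 members, against 59.1% of all tested features, and higher for 3. These members are not separate measurements, since 14 are of type U2 and 7 of type U5, with copies alike in sequence. With identical or overlapping copies summed, 26 of 34 were lower. The KO and WT libraries did not overlap for 6 of the 38 members, all lower in KO, against 15.2% of all tested features, or 12.5% in that direction.

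The median log2 fold change (KO over WT) of the tested members was -0.27, and that of all tested features was -0.08. With DESeq2-style (RLE) size factors these medians were -0.17 and 0.022, and with library totals alone they were -0.33 and -0.16. The direction of the members' median rested on 1 library: without KO replicate 2 it was 0.025, with 19 of 38 members lower, and without WT replicate 3 it was -0.05, with 21 of 38 lower. Summed over all members, the level was 2454, 1081 and 1963 CPM (KO) against 1999, 2075 and 2486 CPM (WT), so the groups overlapped and KO replicate 1 was near the highest WT library.

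Per length, U2 was the most abundant type. In the WT libraries the mean level per 100 nt was 786 CPM for U2, 391.5 CPM for U7 and 218 CPM for U5. Without the division by length, U5 (253 CPM) stood slightly above U7 (243 CPM). U12, at 72.2 CPM per 100 nt, stood well above its minor spliceosome partners U11 (3.41 CPM per 100 nt), U6atac (1.24) and U4atac (1.08), and U4 was at 6.30 CPM per 100 nt. U6atac and U4atac, neighbours in this order, did not differ beyond their spread: the ratio of their reads was 1.65, 1.18 and 1.07 (KO) against 1.47, 0.829 and 0.972 (WT). These are levels of reads after gel selection, and the yield of each RNA by length or structure was not tested. The unknown treatment of reads with several matches also bears on types with many similar copies, such as U2 and U5.

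U2, the branch site RNA, was summed over its 19 members, so that a split of reads among these members matters less. Reads counted more than once, or shared with features outside the sum, could still affect it. It stood at 1827, 707 and 1401 CPM in the KO libraries and at 1329, 1507 and 1665 CPM in the WT libraries. KO replicate 1 was the highest of all and KO replicate 2 the lowest, so the groups overlapped. The means were 1312 ± 566 and 1500.3 ± 168 CPM (SD, n = 3 each), and the log2 fold change was -0.13 (SE 0.33, adjusted p = 0.936 by edgeR's quasi-likelihood test). Fitted among features of U5 to U2 length alone (longer than the U6-length class, up to 200 nt) it was 0.12. Among single copies, Rnu2-10 gave read counts of 5037, 2185 and 3580 (KO) against 4386, 4008 and 4667 (WT), a mean of 73.9 ± 30.9 against 87.5 ± 4.86 CPM (SD, n = 3 each). Its log2 fold change was -0.18 (SE 0.33, edgeR adjusted p = 0.889). The KO libraries were far apart and the WT libraries close together.

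The U2 genes form a family of near-identical copies, of which 13 copies of 191 nt had over 1000 reads each. Gm23971, Rnu2-10, Gm24950 and Gm23849, all on chromosome 11 between 101627366 and 101658428, have the same sequence (that of Rnu2-10 above). Their counts were nevertheless not all alike: Rnu2-10, Gm24950 and Gm23849, on the plus strand, had 23863, 23689 and 23607 reads, and Gm23971, on the minus strand, had 33108. Gm23472 on chromosome 1 and Gm23444 on chromosome 11 are identical to each other and differ from Rnu2-10 at 1 base, at position 109 from the 5′ end, and had 50681 and 50336 reads. Gm25939 in an intron of D230017M19Rik, with 3 differences, had the most reads of any U2 copy (63550), whereas Gm26108 on chromosome X, with 19 differences, had 7. The treatment of reads with several matches was not given in the sources used here, so the counts of single copies are uncertain.

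**Figure D2:**
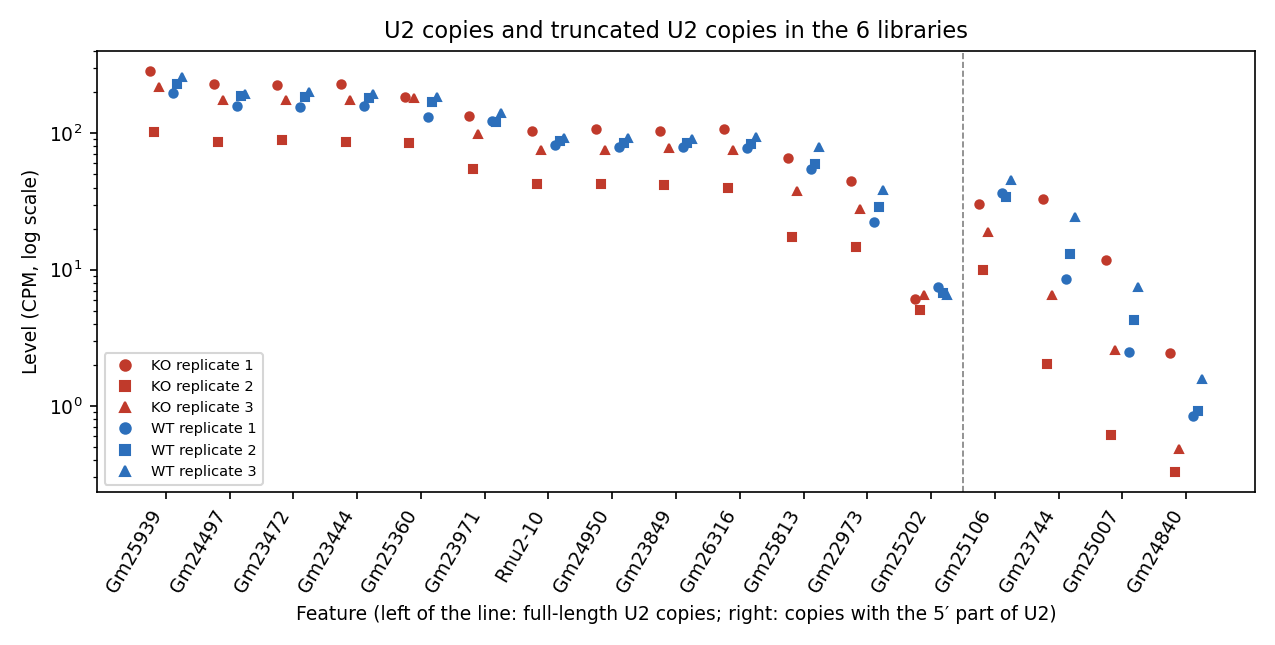
Level of each 191-nt U2 copy with over 1000 reads (left of the dashed line) and of 4 shorter features that carry the 5′ part of U2 (right), in CPM on a log axis, for KO (red) and WT (blue) libraries, with replicates 1, 2 and 3 as circles, squares and triangles. KO replicate 2 is the lowest library in every column, and the 6 libraries spread more widely for Gm23744 and Gm25007 (16.1-fold and 18.9-fold from lowest to highest) than for Rnu2-10.

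The mix of U2 copies was compared as each copy's percentage of the U2-type reads of these 13 copies, a measure that does not depend on the library scaling. For 4 of the 13 copies the groups did not overlap. Gm23971 made up 7.29%, 7.73% and 7.03% (KO) against 9.33%, 7.98% and 8.42% (WT), and Gm25813, a copy on chromosome 8, made up 3.58%, 2.45% and 2.68% (KO) against 4.12%, 3.92% and 4.78% (WT). The identical pair Gm23444 and Gm23472 lay the other way: 12.2% to 12.5% against 11.7% to 12.01% for Gm23444, and 12.5% to 12.6% against 11.7% to 12.2% for Gm23472. Each of these 4 copies reached the smallest p that an exact two-sided permutation test of 3 against 3 allows (p = 0.1). The smallest Benjamini-Hochberg value over the 13 copies was 0.325, so no share passed. Rnu2-10, Gm24950 and Gm23849, which have the same sequence as Gm23971, had shares that overlapped between the groups. Their mean shares were 5.69%, 5.75% and 5.71% (KO) against 5.86%, 5.70% and 5.72% (WT) (exact permutation p = 0.5, 0.9 and 0.9). Gm25202 on chromosome X, a copy with 8 differences, gave read counts of 297, 261 and 307 (KO) against 399, 306 and 330 (WT). Its CPM values did not overlap between groups by a small margin (5.03 to 6.49 against 6.50 to 7.49), with a log2 fold change of -0.17 (SE 0.22, edgeR adjusted p = 0.819), while its share of the U2 reads did overlap.

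Among the other abundant U2 copies, Gm25939 gave read counts of 13894, 5316 and 10264 (KO) against 10491, 10463 and 13122 (WT), with a log2 fold change of -0.11 (SE 0.36). Gm24497 and Gm23472 had log2 fold changes of -0.07 (SE 0.35) and -0.06 (SE 0.34), which became 0.03 for both with RLE size factors. All 3 followed the order of the libraries seen in the U2 sum.

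U4, which keeps U6 inactive until the spliceosome is activated, was the scarcest RNA of the major spliceosome among the members. Its summed level was 6.33, 3.16 and 5.35 CPM (KO) against 10.9, 6.87 and 8.86 CPM (WT), so every KO library lay below every WT library. The means were 4.95 ± 1.62 and 8.88 ± 2.01 CPM (SD, n = 3 each), with a log2 fold change of -0.78 (SE 0.33) that did not pass (unadjusted p = 0.0540, edgeR adjusted p = 0.655). The reads came almost wholly from a pair of neighbouring genes on chromosome 5. Gm24407 stood at 3.05, 1.64 and 2.45 CPM (KO) against 5.22, 3.68 and 4.35 CPM (WT), and its estimate was -0.82 on the log2 scale (SE 0.32, edgeR unadjusted p = 0.0383 and adjusted p = 0.710). Gm24265 gave read counts of 150, 76 and 131 (KO) against 299, 142 and 221 (WT), and its estimate was -0.77 on the log2 scale (SE 0.38, edgeR adjusted p = 0.710). In both genes KO replicate 2 was the lowest and WT replicate 1 the highest library in reads.

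U4 was also set against U5, its partner in the assembled particle of U4, U5 and U6, as a ratio of reads within each library. The ratio was 0.0289, 0.0227 and 0.0238 (KO) against 0.0413, 0.0334 and 0.0305 (WT). The groups did not overlap, with a mean log2 difference of -0.48 and an exact two-sided permutation p of 0.1, the smallest possible, or 0.6 after Benjamini-Hochberg adjustment over the 6 ratios compared. Fitted among features of U5 to U2 length alone, the U4 sum had a log2 fold change of -0.51. Leaving out KO replicate 2 gave -0.48, and leaving out WT replicate 1 gave -0.52.

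U5, which both spliceosomes share, stood at 219, 139 and 224 CPM (KO) against 264, 206 and 291 CPM (WT). KO replicates 1 and 3 lay above WT replicate 2. The means were 194 ± 47.8 and 253 ± 43.6 CPM (SD, n = 3 each), with a log2 fold change of -0.32 (SE 0.23, edgeR adjusted p = 0.711). It was -0.070 without KO replicate 2, -0.12 without WT replicate 3 and -0.047 among features of U5 to U2 length alone. Of the 11 U5 genes, 7 held nearly all reads (1571 to 17671 each), and the other 4 had at most 3 reads each. Rnu5g and Gm25313, both in an intron of Parp16 on the opposite strand, were among these 7. Rnu5g gave read counts of 2707, 1905 and 2652 (KO) against 3675, 2365 and 3857 (WT), and its estimate was -0.34 on the log2 scale (SE 0.25, edgeR adjusted p = 0.733). Gm25313 had a log2 fold change of -0.37 (SE 0.24), and Gm24871 had -0.28 (SE 0.29). As percentages of the U5 reads of these 7 variants, none separated the groups, the smallest Benjamini-Hochberg value was 0.933, and Rnu5g made up 25.6% ± 0.708 of U5 reads in KO and 25.9% ± 0.443 in WT (SD, n = 3 each).

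U7, the histone mRNA processing RNA, is the shortest type (60 and 62 nt) and came almost wholly (99.8%) from Rnu7. Rnu7 lies in an exon of Grcc10 on the same strand, so reads of Rnu7 and Grcc10 cannot be told apart by strand. It gave read counts of 8013, 9945 and 11050 (KO) against 13940, 9527 and 12964 (WT), and KO replicate 3 exceeded WT replicate 2. The mean was 197 ± 34.4 against 242 ± 28.2 CPM (SD, n = 3 each), with a log2 fold change of -0.24 (SE 0.17, edgeR adjusted p = 0.733). The order of the libraries differed from that of the U2 sum, since KO replicate 1, the highest for U2, was the lowest for Rnu7. KO replicate 1 was also the lowest library for some longer members, among them Rnu11 (2.93 CPM) and Gm22710 (0.536 CPM). A second U7 feature, Gm23763, named Rnu7-ps3 in RefSeq, gave read counts of 9, 19 and 22 (KO) against 20, 29 and 25 (WT), and its estimate was -0.51 on the log2 scale (SE 0.39, edgeR adjusted p = 0.734).

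U11, which pairs with the 5′ splice site of minor introns, came from Rnu11, which overlaps an exon of Gm28872 on the opposite strand. The strand setting of the counting was not given in the sources used here, so reads of the 2 genes cannot be told apart. Rnu11 gave read counts of 142, 168 and 181 (KO) against 269, 200 and 213 (WT), so the groups did not overlap. The mean was 3.33 ± 0.456 against 4.55 ± 0.444 CPM (SD, n = 3 each), with a log2 fold change of -0.39 (SE 0.23, edgeR adjusted p = 0.730). Rnu11 is a member of 134 nt whose level varied little, 1.72-fold from the lowest to the highest library.

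U12, the branch site RNA of minor introns, varied most among the typed RNAs. Its summed level was 145.1, 19.5 and 61.4 CPM (KO) against 71.7, 81.9 and 172.1 CPM (WT), an 8.83-fold range over all 6 libraries, and the groups overlapped. The log2 fold change was -0.45 (SE 0.72, edgeR adjusted p = 0.845), and leaving out KO replicate 2 gave 0.073, leaving out WT replicate 3 gave 0.15. Rnu12 itself gave read counts of 5959, 785 and 2290 (KO) against 3133, 3041 and 7440 (WT), and its estimate was -0.47 on the log2 scale (SE 0.74, edgeR adjusted p = 0.852). Of the other U12 features, Gm23502 had a log2 fold change of -0.39 (SE 0.76) and Gm24525, in an intron of Zfp804b, had -0.27 (SE 0.34). The ratio of U12 to U11 reads moved from 6.02 in KO replicate 2 to 49.5 in KO replicate 1, and was 16.0 in KO replicate 3 and 14.1, 18.6 and 40.7 in the WT libraries (exact permutation p = 0.9).

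U4atac and U6atac, which pair with each other in the minor spliceosome, were the rarest typed RNAs. The U4atac gene Gm22710, in an intron of Clasp1 on the opposite strand and an exon of 2900060B14Rik on the same strand, gave read counts of 26, 55 and 46 (KO) against 93, 41 and 72 (WT), and its estimate was -0.60 on the log2 scale (SE 0.38, edgeR adjusted p = 0.730). Reads of Gm22710 and 2900060B14Rik cannot be told apart by strand. The U6atac gene Gm25541 stood at 0.887, 1.25 and 1.01 CPM (KO) against 2.57, 0.749 and 1.38 CPM (WT), and its estimate was -0.51 on the log2 scale (SE 0.47, edgeR adjusted p = 0.759). In both genes WT replicate 1 was the highest library and WT replicate 2 lay below KO replicate 2. Without WT replicate 1 the log2 fold change of Gm25541 was 0.13.

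In the remaining ratios between snRNA types the groups overlapped. U2 to U5 was 8.33, 5.07 and 6.24 (KO) against 5.03, 7.33 and 5.72 (WT) (exact permutation p = 0.6). U12 to U2, the branch site RNAs of the minor and major spliceosomes, was 0.0794, 0.0276 and 0.0439 against 0.0539, 0.0544 and 0.103 (exact permutation p = 0.4), and U7 to U5 was 0.754, 1.38 and 1.04 against 0.992, 1.02 and 0.880 (exact permutation p = 0.7). The percentage of member reads in U2 was 74.5, 65.4 and 71.4 (KO) against 66.5, 72.6 and 67.0 (WT).

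Among the 41 untyped members, 9 share an exact run of at least 40 nt with Rnu2-10. They held 14790 reads, and 3 of them had over 1000. The sequences of these 3 are printed because each carries an exact run from the 5′ part of U2. In Gm25106 the letters on both sides of the run also resemble Rnu2-10, with mismatches. Capitals mark the longest run shared with Rnu2-10, which includes the branch site pairing stretch.
Gm25106 (chr11:98473675-98473808, minus strand, intron of Ikzf3, same strand): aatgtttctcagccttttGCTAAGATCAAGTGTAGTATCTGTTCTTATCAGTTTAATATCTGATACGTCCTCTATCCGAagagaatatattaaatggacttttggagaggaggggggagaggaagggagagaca
Gm23744 (chr1:155954574-155954722, plus strand, intron of Cep350, opposite strand): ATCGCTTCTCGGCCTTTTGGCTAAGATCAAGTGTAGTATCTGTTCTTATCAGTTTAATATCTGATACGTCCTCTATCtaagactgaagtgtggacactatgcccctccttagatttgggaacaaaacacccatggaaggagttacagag
Gm25007 (chr15:48551308-48551440, plus strand, intron of Csmd3, opposite strand): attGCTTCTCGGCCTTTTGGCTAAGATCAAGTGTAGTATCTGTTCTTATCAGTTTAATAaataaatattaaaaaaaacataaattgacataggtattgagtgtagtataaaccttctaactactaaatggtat

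The shared run was 61 nt in Gm25106 (positions 20 to 80 of Rnu2-10), 77 nt in Gm23744 (positions 1 to 77) and 56 nt in Gm25007 (positions 4 to 59). Because these runs are shared with full-length U2, the counts of the truncated copies are uncertain. Gm25106 gave read counts of 1471, 519 and 886 (KO) against 1952, 1547 and 2291 (WT), without overlap of the groups in CPM, at 19.7 ± 10.2 against 38.6 ± 5.78 CPM (SD, n = 3 each). Its log2 fold change was -0.90 (SE 0.41, edgeR adjusted p = 0.710), and it was -0.52 without KO replicate 2. Ikzf3, its host, encodes a lymphoid transcription factor of the Ikaros family.

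Gm23744 and Gm25007 did not follow Gm25106. Gm23744 gave read counts of 1594, 106 and 309 (KO) against 452, 595 and 1236 (WT), a 16.1-fold range in CPM, with a log2 fold change of -0.06 (SE 0.95). Gm25007 stood at 11.7, 0.617 and 2.58 CPM (KO) against 2.50, 4.295 and 7.52 CPM (WT), an 18.9-fold range, with a log2 fold change of 0.14 (SE 0.97). In both, and in Rnu12, KO replicate 1 and WT replicate 3 were the 2 highest libraries and KO replicate 2 was the lowest. The 9 truncated copies are untyped and not part of the U2-type reads. Relative to the U2-type reads, their reads came to 4.25%, 1.85% and 2.04% (KO) against 3.67%, 3.50% and 4.74% (WT) (exact permutation p = 0.3).

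The member with the smallest p-value was a rare one. Gm23240, an intergenic untyped gene of 121 nt on chromosome 1 that shares a run of 31 nt with the U1 gene Rnu1b1, gave read counts of 9, 11 and 8 (KO) against 43, 31 and 17 (WT). Its level was 0.189 ± 0.0217 against 0.608 ± 0.245 CPM (SD, n = 3 each). The log2 fold change was -1.60 (SE 0.41), with an unadjusted p of 0.00595 and an adjusted p of 0.542 by edgeR.

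**Figure D3:**
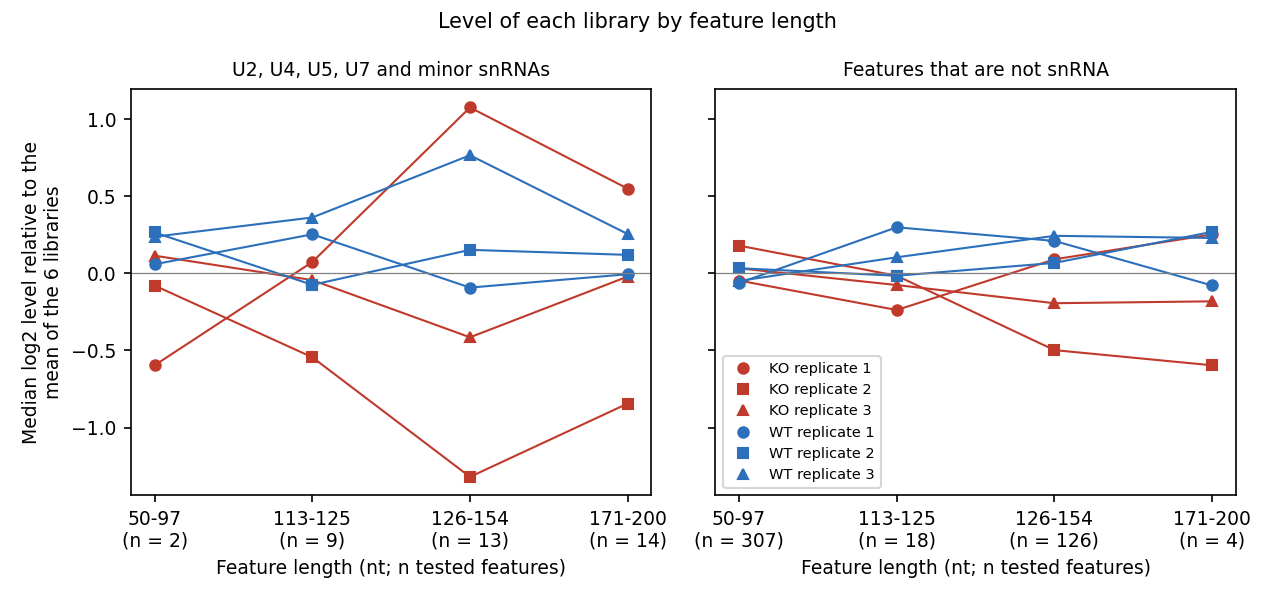
Median log2 level of the tested features of each length class in each library, relative to the mean of the 6 libraries, for the members (left) and for features that are not snRNA (right), with KO in red, WT in blue and replicates 1, 2 and 3 as circles, squares and triangles. KO replicate 2 lies below 0 in every length class of the members and reaches -1.32 in the third class, where KO replicate 1 reaches 1.08.

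KO replicate 2 was the lowest library for 31 of the 36 tested members longer than the U6-length class, against 38.6% of all tested features and 62.0% of the features of U5 to U2 length that are not snRNA. Across the members of 126 to 151 nt (13 tested), which include U4, U11, U12, U6atac and the truncated U2 copies, the median log2 level relative to the mean of the 6 libraries was 1.08, -1.32 and -0.41 (KO) against -0.09, 0.15 and 0.77 (WT). The types in this class differed. In KO replicates 1 and 2 Rnu12 stood at 1.09 and -1.95, Rnu11 at -0.32 and -0.19, and Gm25541 (U6atac) at -0.35 and 0.12. The U4 genes Gm24265 and Gm24407 stood at 0.058 and 0.024 in KO replicate 1, and at -1.02 and -0.88 in KO replicate 2. In the members of 180 to 191 nt (14 tested, the U2 copies) KO replicate 2 stood at -0.84. The 126 tested features of the same length class as these 13 members that are not snRNA also had their lowest median in KO replicate 2, at -0.50. The 307 tested features of 50 to 97 nt that are not snRNA had a median of 0.18 in KO replicate 2. KO replicate 2 was also the library with the highest summed muscle (14.9 CPM) and brain (2.16 CPM) markers, whose part in this pattern was not tested.

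**Figure D4:**
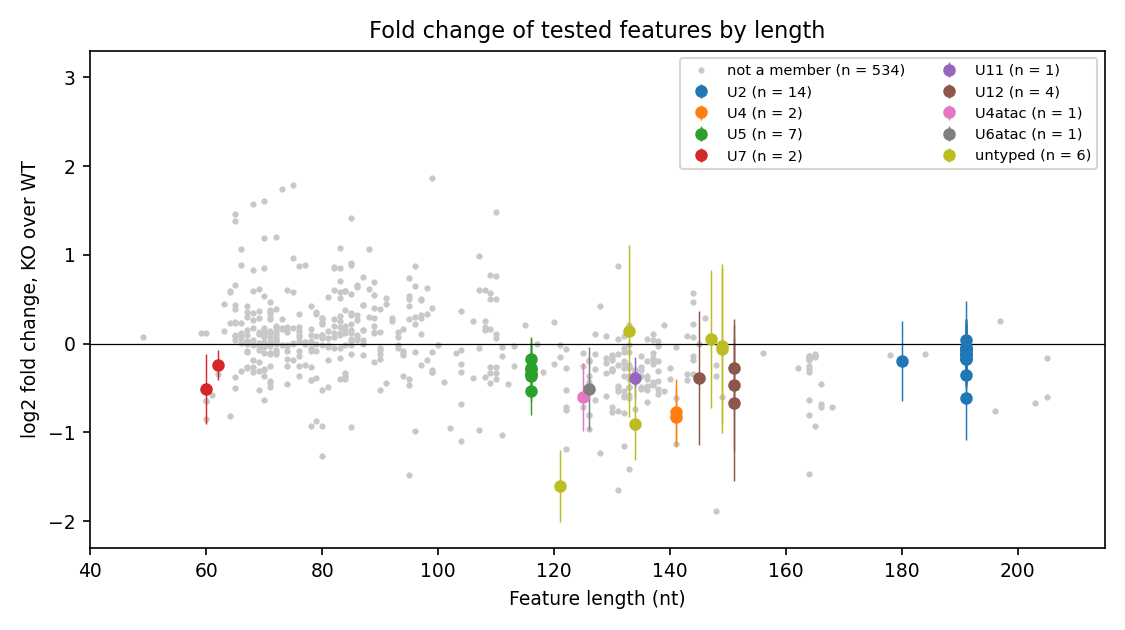
Log2 fold change (KO over WT) against feature length in nt for the 38 tested members, coloured by type with SE bars, and for 534 of the 586 other tested features (grey points). Most grey points of U5 to U2 length and most members lie below 0, and most grey points of 50 to 97 nt lie above it.

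RNAs of like length that are not snRNA had estimates of similar direction and size. Of the 150 tested features of U5 to U2 length that are not snRNA, 85.3% had a lower estimate in KO, with a median log2 fold change of -0.29, next to -0.27 for the members. Of the 307 features of 50 to 97 nt that are not snRNA, 109 were lower, with a median of 0.11. When only features of U5 to U2 length were fitted, with the normalization taken among them, 16 of 36 members were lower and the members' median was 0.011. This normalization centres the 211 features fitted, members among them, near 0 (median 0.015). The fit therefore cannot show a shift that they share. As a ratio of summed reads, the members longer than the U6-length class over the other features of U5 to U2 length gave log2 values of -2.69, -1.96 and -1.71 (KO) against -1.68, -1.98 and -2.42 (WT), with means of -2.12 and -2.03, and 1 feature, Gm25117 (144 nt), held 48.4% of that reference.

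The other snRNA genes and the RNAs that modify snRNAs gave no calls. All 25 tested U1-length genes had a lower estimate in KO, with a median log2 fold change of -0.17, 4 of them at an unadjusted p under 0.05 (against 4.33% of all tested features lower in KO) and 9 without overlap of the groups (against 12.5% in that direction). Both tested U6-length genes were lower, with a median of -1.03. The small Cajal body RNAs, which guide the modification of snRNAs, had 2 members with reads: Scarna10, with a log2 fold change of -0.16 (SE 0.25), and Scarna9, with -0.29 (SE 0.23). None of these had an adjusted p under 0.05 by edgeR.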

How the data were processed

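The deposited values are raw counts for each non-coding RNA, with a separate table for every library, made by the authors from reads trimmed with Trimmomatic 0.38 and aligned with Bowtie2 2.3.4.1, per the submitters' processing notes (build GRCm38). The counting tool, the strand setting and the treatment of reads with several matches were not given in the sources used here. Features missing from a library's table were set to 0. Features were joined to GENCODE M21 (GRCm38) by position (1822 of 1823 matched), and 86 of the 87 members had a transcript sequence; the other, on an unplaced scaffold, was left untyped. The U5 sequences are not reported here. RefSeq names were taken at 80% overlap without regard to strand, because the table used holds no strand.

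The counts were tested with edgeR 4.0.16 in R 4.3.3 (quasi-likelihood, TMM, default filter with minimum count 10 and minimum total 15, KO against WT, two-sided, adjusted over all 624 features tested, threshold 0.05). A type sum was fitted in the whole table in place of its members. SEs are the log2 fold change over the square root of F and are approximate. CPM uses library totals. For a single value per library an exact permutation test (two-sided) was used. The scripts were tested on simulated data. Alternatives were other normalizations, filters, DESeq2 1.42.0, the replicate block, leaving out each library, like-length features alone, summed copies and typing by length. Named members had a gene name, were among the 3 most abundant of their type, or had groups that did not overlap. Members and lists were chosen with earlier results of these data known.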

Additional observations from a re-analysis of the deposited data

How the results depend on the processing

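No member was called under any setting, and 1 of all features was called in the main test, 13 without the filter, 0 with the replicate block, 0 among features of U5 to U2 length alone and 0 to 1 with 1 library left out. Members with a lower estimate numbered 35 of 38, 60 of 87 without the filter, 16 of 36 among features of U5 to U2 length and 19 to 37 with 1 library left out. They numbered 29 of 38 with RLE size factors and with DESeq2, and 37 of 38 with library totals alone. With at least 50 counts in 3 libraries they numbered 30 of 34, and with copies summed 26 of 34. Their median log2 fold change was -0.41 to 0.025 with 1 library left out. It was 0.011 among features of U5 to U2 length, where the median of all features fitted was 0.015. Without KO replicate 2 and WT replicate 3 together, an alternative chosen after seeing the data, 15 were lower and the median was 0.12. The U2 sum was 0.0048 without the filter, 0.12 among features of U5 to U2 length and -0.43 to 0.24 with 1 library left out. With 1 library left out the U12 sum ranged from -1.35 to 0.15, the U6atac sum from -0.78 to 0.13, the log2 difference in the summed level of all members from -0.52 to 0.0145, the U2 share difference from -0.33 to 4.21 percentage points, and the difference against other RNAs of like length from -0.30 to 0.19. That last difference was 0.44 in the window of 170 to 210 nt. The U4, U5, U7, U11 and U4atac sums were lower in KO under every setting fitted, and none passed. With 1 library left out they ranged from -0.97 to -0.48 (U4), -0.42 to -0.070 (U5), -0.37 to -0.088 (U7), -0.50 to -0.23 (U11) and -0.77 to -0.30 (U4atac), and Gm25106 ranged from -1.31 to -0.52. Among features of U5 to U2 length alone, U5 was at -0.047, U11 at -0.090 and U4atac at -0.27.

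The estimates of some named members changed sign. The fit among features of U5 to U2 length alone is centred on those features, so a shift they share is not in its estimates. Among features of U5 to U2 length alone the estimates were 0.10 for Rnu2-10, 0.20 for Gm23744, 0.0158 for Gm24871, 0.21 for Gm23472, 0.20 for Gm24497, 0.16 for Gm25939, 0.0036 for Gm24525 and 0.13 for Gm25202. With RLE size factors they were 0.0368 for Gm23744, 0.0341 for Gm23472 and 0.0285 for Gm24497, and with DESeq2 0.0370, 0.0341 and 0.0285. With 1 library left out they ranged from -0.45 to 0.17 for Rnu2-10, -1.23 to 0.18 for Gm23502, -1.49 to 0.72 for Gm25007, -1.42 to 0.15 for Rnu12 and -1.74 to 0.54 for Gm23744. They ranged from -0.38 to 0.0058 for Gm24871, -0.33 to 0.29 for Gm23472, -0.35 to 0.30 for Gm24497, -0.41 to 0.27 for Gm25939, -0.76 to 0.13 for Gm25541 and -0.38 to 0.0569 for Gm24525. The causes were not tested.

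The replicate numbers did not pair the samples: deviations of same-numbered KO and WT libraries correlated at -0.13, 0.40 and -0.36, and only the libraries numbered 2 correlated best with their own number. With the replicate block 38 of 38 members were lower, with a median of -0.37, no member was called, and Gm25007 was at -0.80. U7 members, which are shorter, were not in the fit among features of U5 to U2 length. Typing by length alone moved Gm22710 from U4atac to U6atac and Gm25179 from U4 to U4atac, and it gave no fitted U4atac sum. Features with few reads, such as Gm23240 and the atac RNAs, limit what 3 libraries a group can show.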
